A study of Mus musculus with 6 samples.

Results

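Imatinib was designed against the tyrosine kinase of the BCR/ABL fusion, and it also binds the normal ABL kinases and a small group of receptor tyrosine kinases. The genes described here are those kinases, Abl1, Abl2, Kit, Pdgfra, Pdgfrb, Csf1r, Ddr1 and Ddr2, together with Bcr, which supplies the other part of the fusion. They were chosen by name, and every probe set whose platform annotation gives 1 of these 9 symbols alone was taken. This gave 29 probe sets of the 35877 that carry a gene symbol, and 0 probe sets named a member beside another symbol.

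Transcript levels were measured on 6 Affymetrix arrays, 2 for each of 3 groups of sorted mouse bone marrow cells. The vector group carried an empty GFP vector and no BCR/ABL. The BCR/ABL group came from untreated CML mice, a mouse model of chronic myeloid leukaemia, and the BCR/ABL imatinib group from CML mice given imatinib. All 3 groups were sorted as GFP+Lin-c-Kit+Sca-1+ cells, that is, stem and early progenitor cells marked by the vector, so surface KIT, the product of a member gene, was itself a criterion of the sort in each group. The labels used here give no strain, age, dose or duration of treatment. They also leave unsaid whether replicate arrays stand for separate animals, so each p-value reflects spread among these samples alone, possibly technical spread.

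ABL1 and ABL2 are cytoplasmic tyrosine kinases that couple receptors to the actin cytoskeleton and, in the nucleus, to the response to DNA damage. BCR is a cytoplasmic protein with a kinase domain of its own and domains that act on small GTPases, and its amino-terminal coiled coil lets the fusion protein form oligomers and stay active. KIT is the receptor for stem cell factor and sustains haematopoietic stem cells and mast cells. PDGFRA and PDGFRB are receptors for platelet-derived growth factors, best known in mesenchymal cells. CSF1R is the receptor for CSF1 and IL-34 and drives monocyte and macrophage development, and DDR1 and DDR2 are receptors for collagen. KIT, both PDGF receptors and CSF1R belong to the same structural class of receptor tyrosine kinases, and their genes lie in pairs: in RefSeq's mouse gene table (assembly GRCm38.p6) Pdgfra is the protein-coding gene next to Kit, and Pdgfrb the one next to Csf1r.

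The cells' identity was checked on marker lists, each gene by the probe set with its highest mean. All 9 measured stem cell markers and all 12 granulocyte markers reached an intensity of 100 on at least 1 array. So did all 9 mast cell and basophil and all 7 megakaryocyte markers. Of the other lists, 10 of 11 B cell, 9 of 10 monocyte and macrophage and 6 of 7 erythroid markers reached it. For stromal and endothelial markers it was 5 of 11, and for T and NK cell markers 5 of 8. Reaching 100 therefore does not tell most of these cell types apart. The summed intensity of 9 mast cell and basophil markers ranged over 6602 to 11694 (vector), 35545 to 35791 (untreated BCR/ABL) and 48995 to 58707 (imatinib). That of 11 B cell markers was 6340 to 30125, 2392 to 3383 and 1526 to 3406 in the same order. Of genes on these marker lists the tests called Hdc and Tpsab1 (mast cell) and Lat (T and NK cell). Of the 8 measured T and NK cell markers, 1 (Lat) was higher in BCR/ABL than in vector and 7 were lower, with a median log2 change of -1.13. Hdc was higher in BCR/ABL (2.35, adjusted p = 0.0236) and with imatinib (2.44, adjusted p = 0.0363) than in vector, Tpsab1 with imatinib than in vector (5.81, adjusted p = 0.0484) and Lat in BCR/ABL than in vector (2.03, adjusted p = 0.0333), all on the log2 scale. Replicates differed most in vector: 3694 probe sets differed more than 2-fold between them, against 860 in BCR/ABL and 1611 with imatinib. The ratio of 3-prime to 5-prime signal for beta-actin, a measure linked to RNA integrity and labelling, was 1.81 and 1.62 on vector replicates 1 and 2, 1.48 and 1.30 for BCR/ABL, and 1.74 and 1.55 for imatinib. It was thus higher on replicate 1 in all 3 groups, as was that for Gapdh (1.56 and 1.36, 1.34 and 1.28, 1.45 and 1.39). Both ratios were also lower on both BCR/ABL arrays than on every vector and imatinib array. The median deposited intensity was likewise lowest on the BCR/ABL arrays, at 35.61 and 42.19 against 44.82 to 57.2 elsewhere. The part of these measures in the results below was not tested. In bulk samples a change in the share of cells of a type and a change in RNA per cell cannot be told apart.

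None of the 29 probe sets was called at an adjusted p under 0.05 in any of the 3 comparisons (limma over all tested probe sets). For BCR/ABL against vector 0 of 29 were called, where 0.0613% of all tested probe sets were, for imatinib against untreated BCR/ABL 0 of 29 against 0%, and for BCR/ABL imatinib against vector 0 of 29 against 0.0446%. At an unadjusted limma p under 0.05 there were 3, 4 and 4 of 29 in the same order, against 11.5%, 14.6% and 13.8% of all tested probe sets, so the members' counts lay near the background. The probe sets of a gene share transcripts and are not independent of each other. By the representing probe set, 2 genes were higher and 7 lower in BCR/ABL than in vector, 5 higher and 4 lower with imatinib than without, and 3 higher and 6 lower with imatinib than in vector. The median log2 change of the 9 genes was -0.22, 0.12 and -0.11, beside 0.01, -0.01 and -0.00 over all 18193 genes. The last 2 of these medians are the changes of Pdgfra, whose signal was near background. Over the 7 genes that reached an intensity of 100 on any array, which leaves out Pdgfra and Ddr2, the medians were -0.21, 0.19 and -0.04. Comparisons that share a group of arrays are not independent, and their values are given side by side.

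**Figure D1:**
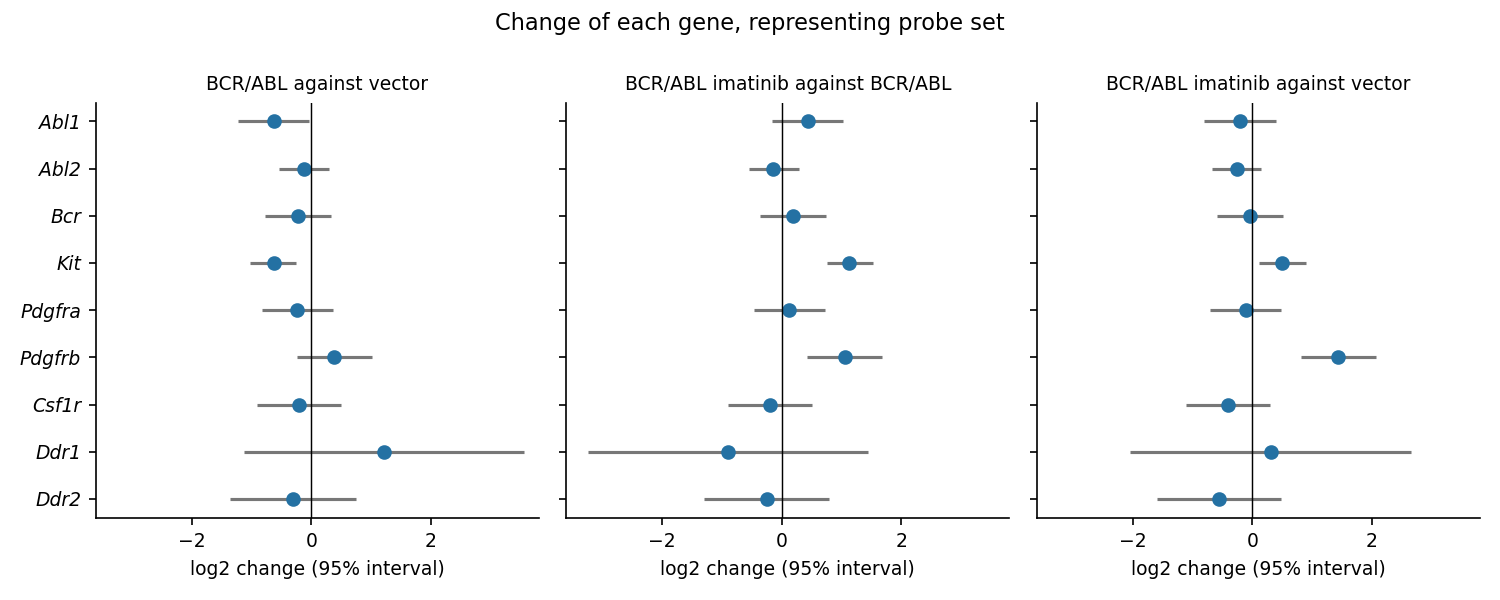
Log2 change of each gene by its representing probe set in the 3 comparisons, on the log2(intensity + 16) scale; points are limma estimates and bars 95% intervals from 2 arrays per group. Kit and Pdgfrb lie furthest from 0 with imatinib against untreated BCR/ABL, at 1.13 and 1.05, and Ddr1 has the widest intervals.

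Kit, the stem cell factor receptor, was lowest in untreated BCR/ABL cells and highest with imatinib. Its brighter probe set, 1452514_a_at, had deposited intensities of 1637 and 2125 (vector), 1332 and 1116 (untreated BCR/ABL), then 2659 and 2602 (imatinib). The 3 groups did not overlap. On the log2 scale the level averaged 10.88 ± 0.25 (SD, n = 2) for vector arrays, 10.25 ± 0.17 for BCR/ABL arrays and 11.39 ± 0.00 for imatinib arrays. The log2 change with imatinib against untreated BCR/ABL was 1.13 (SE 0.16, 95% interval 0.75 to 1.52), a fold of 2.2, which ranked 108 of 35877 by p but did not pass (adjusted p = 0.108). When only probe sets above the 50th percentile were tested, the same change was called (adjusted p = 0.0421), and 211 probe sets were then called in all.

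BCR/ABL against vector gave Kit a log2 change of -0.63 (SE 0.16, 95% interval -1.02 to -0.25, adjusted p = 0.29), and BCR/ABL imatinib against vector 0.50 (SE 0.16, 95% interval 0.12 to 0.89, adjusted p = 0.273). The dimmer probe set, 1415900_a_at, had intensities of 208 and 558 (vector), 353 and 203 (untreated BCR/ABL), then 840 and 877 (imatinib). It put the imatinib arrays above all others, with a log2 change of 1.54 against untreated BCR/ABL (95% interval 0.27 to 2.81, adjusted p = 0.257), but its vector and BCR/ABL arrays overlapped, with a change of -0.24 (95% interval -1.51 to 1.03). The order of vector and BCR/ABL therefore rests on the brighter probe set, while both placed imatinib highest. Mast cells carry much KIT. Of their 9 markers, summed above, 9 were higher in BCR/ABL than in vector without overlap (1 called), and 8 were higher with imatinib than without, 7 of them without overlap and 0 called. The 9 stem cell markers summed to 15406 and 20325 (vector), 16601 and 15125 (untreated BCR/ABL), then 19168 and 21180 (imatinib), and 6 of them were higher with imatinib than without, with no overlap. Of these stem cell markers 0 were called. Over all tested probe sets 23.5% were higher without overlap in BCR/ABL than in vector, and 22.5% with imatinib than without. The part of either list in the Kit values was not tested.

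**Figure D2:**
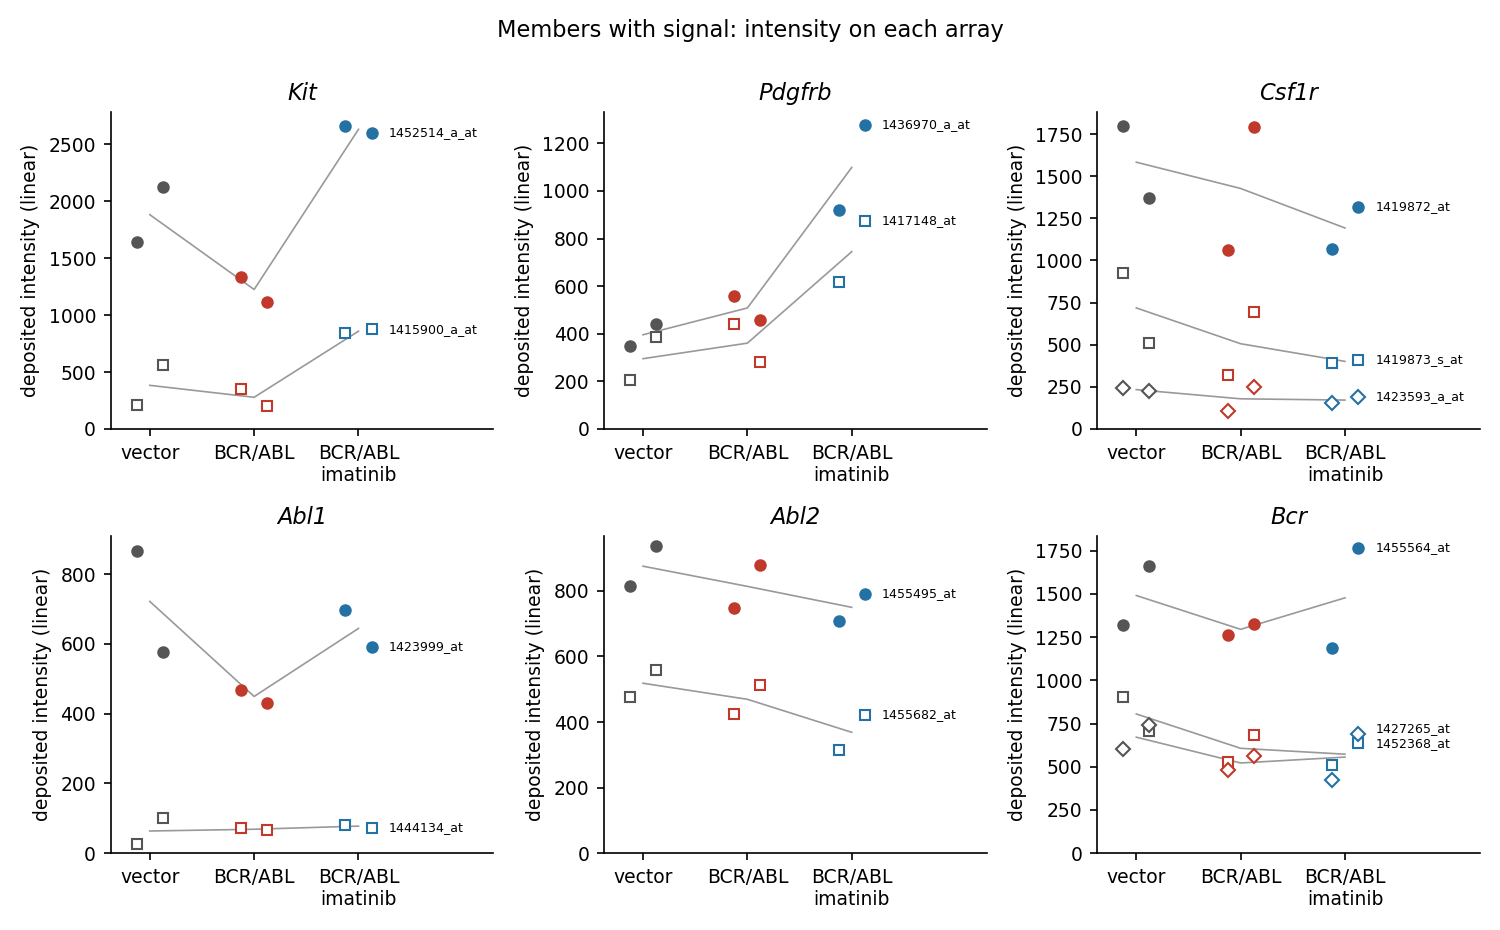
Deposited MAS5 intensity (linear axis from 0) of Kit, Pdgfrb, Csf1r, Abl1, Abl2 and Bcr on each array; grey symbols are vector, red BCR/ABL and blue BCR/ABL imatinib, left and right points replicates 1 and 2, filled symbols the representing probe set, and grey lines join group means. Probe sets below 100 on all 6 arrays are left out; Kit and Pdgfrb are highest on the imatinib arrays, at 2602 to 2659 and 920 to 1278 for the filled symbols.

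The sequences upstream of Kit and Abl1 are shown because their brightest probe sets were both lowest on the untreated BCR/ABL arrays, while the order of the other groups differed. They are the 250 bases before the first of the 2 start sites listed for each gene among the windows searched. Start sites outside those windows were not looked for. In assembly GRCm38.p6, on the plus strand, the window of Kit is chr5:75574737-75574986 and that of Abl1 chr2:31759689-31759938. Capitals mark the GC box GGGCGG, searched on both strands.
Kit: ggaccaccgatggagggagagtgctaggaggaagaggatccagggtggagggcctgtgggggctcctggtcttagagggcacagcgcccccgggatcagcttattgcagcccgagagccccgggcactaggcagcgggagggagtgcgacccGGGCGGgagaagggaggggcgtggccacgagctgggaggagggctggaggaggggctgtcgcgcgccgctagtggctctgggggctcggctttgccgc
Abl1: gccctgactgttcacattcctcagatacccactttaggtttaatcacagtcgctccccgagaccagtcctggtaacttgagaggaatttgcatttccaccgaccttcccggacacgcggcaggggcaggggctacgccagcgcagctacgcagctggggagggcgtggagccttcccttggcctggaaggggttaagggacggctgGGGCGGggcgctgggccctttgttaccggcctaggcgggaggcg
Both windows are rich in G and C, at 70.8% for Kit and 63.2% for Abl1. Each holds 1 GC box, a match that 32.7% of the 32851 windows of this length in the table share. The letters AGATAA, TTCNNNGAA and GTAAACA, cores of the sites of GATA, STAT and forkhead factors, are in neither window, while 9.99%, 7.02% and 3.17% of all windows hold them. A match describes letters only, and windows were found for 7 of the 9 members.

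Pdgfrb, the receptor for PDGF-B, had the largest change of the 9 genes against vector. Its brighter probe set, 1436970_a_at, had intensities of 349 and 442 (vector), 561 and 456 (untreated BCR/ABL), then 920 and 1278 (imatinib). The 3 groups did not overlap, although vector and BCR/ABL lay close together. The log2 level went from 8.67 ± 0.29 (SD, n = 2) in vector and 9.06 ± 0.19 in BCR/ABL to 10.10 ± 0.34 with imatinib. Against vector the log2 change with imatinib was 1.43 (SE 0.26, 95% interval 0.81 to 2.06, adjusted p = 0.149), a fold of 2.7, and against untreated BCR/ABL 1.05 (SE 0.26, 95% interval 0.42 to 1.67, adjusted p = 0.165), a fold of 2.07. Neither passed. BCR/ABL against vector gave 0.38 (95% interval -0.24 to 1.01, adjusted p = 0.618).

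The second Pdgfrb probe set, 1417148_at, had intensities of 204 and 387 (vector), 442 and 279 (untreated BCR/ABL), then 616 and 874 (imatinib). It also put both imatinib arrays above the other 4, with log2 changes of 1.34 against vector and 0.96 against untreated BCR/ABL, while vector and BCR/ABL overlapped. Stromal cells are the usual source of PDGFRB in marrow. Of 11 stromal and endothelial markers measured, Lepr, Nes, Lum, Dcn and Col6a1 were below 16 on all 6 arrays. With imatinib against untreated BCR/ABL 3 of the 11 were higher without overlap, namely Dcn, Col6a1 and the adhesion molecule Pecam1, and 2 were lower. Over all tested probe sets 22.5% were higher and 27% lower without overlap in that comparison. The values of Dcn and Col6a1, below 16 throughout, cannot be told from background and are not read as differences. Pecam1 read 392.4 and 561 (vector), 702 and 548 (untreated BCR/ABL), then 729 and 816 (imatinib). The summed intensity of the 11 ranged over 1386 to 2052 (vector), 1375 to 2637 (untreated BCR/ABL) and 1882 to 3204 (imatinib), much of it from Vcam1, which ran from 268 to 1981. Megakaryocyte markers, and the mast cell and basophil markers summed above, both had, as sums, the same order of groups as Pdgfrb. The 7 megakaryocyte markers measured summed to 1830 and 2021 (vector), 3923 and 3326 (untreated BCR/ABL), then 7021 and 6737 (imatinib). In BCR/ABL against vector 6 of them were higher and 1, Vwf, was lower (-0.65), each without overlap. Over all tested probe sets 23.5% were higher and 19.7% lower without overlap there. All 7 were higher with imatinib than in vector without overlap, where 19.7% of all tested probe sets were. All 7 were also higher than in untreated BCR/ABL, 5 of them without overlap against 22.5% of all, with 0 called. The part of any of these lists in the Pdgfrb values was not tested.

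Csf1r, the macrophage growth factor receptor whose gene adjoins Pdgfrb, did not share that pattern. Probe set 1419872_at had intensities of 1796 and 1370.4 (vector), 1062 and 1792 (untreated BCR/ABL), then 1067 and 1319 (imatinib). BCR/ABL replicate 1 was the lowest array and replicate 2 lay just under vector replicate 1, so the BCR/ABL arrays overlapped both other groups. The log2 levels were 10.65 ± 0.28, 10.44 ± 0.53 and 10.24 ± 0.23 (SD, n = 2), and the log2 changes were -0.21 (95% interval -0.91 to 0.49) for BCR/ABL against vector, -0.20 (-0.90 to 0.50) for imatinib against untreated BCR/ABL and -0.41 (-1.11 to 0.29) for imatinib against vector. Adjusted p ran from 0.585 to 0.824. The other probe sets, 1419873_s_at and 1423593_a_at, differed between imatinib and vector by -0.84 (adjusted p = 0.444) and -0.50 (adjusted p = 0.635) on the log2 scale, and all 3 probe sets kept both imatinib arrays below both vector arrays. With imatinib against vector 22.4% of all tested probe sets were lower without overlap. Monocyte and macrophage markers, 10 measured, summed to 21211 and 9640 (vector), 12524 and 14931 (untreated BCR/ABL), then 15820 and 13167 (imatinib). Their part in the Csf1r values was not tested.

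Abl1, the normal counterpart of the oncogenic kinase, had its lowest values in untreated BCR/ABL cells by probe set 1423999_at. Probe sets designed on the mouse genes may miss the transduced fusion transcript, so the Abl1 and Bcr levels do not check the labels. Intensities were 866 and 577 (vector), 468 and 430.0 (untreated BCR/ABL), then 697 and 591 (imatinib). The BCR/ABL arrays lay below the other 4, and vector and imatinib overlapped. The log2 level was 8.89 ± 0.08 (SD, n = 2) in BCR/ABL against 9.53 ± 0.39 in vector, a change of -0.63 (SE 0.24, 95% interval -1.23 to -0.04, adjusted p = 0.415), and 9.33 ± 0.20 with imatinib, a change of 0.43 from untreated BCR/ABL (95% interval -0.16 to 1.03, adjusted p = 0.496). That change was 0.173 with array medians set equal and 0.0005 when the 3 Abl1 probe sets were averaged. The other Abl1 probe sets were dim. Probe set 1444134_at ran from 27 to 100.1 and 1441291_at from 1.49 to 35.8, and neither separated the groups: BCR/ABL against vector gave 0.40 and 0.56, opposite in sign to the bright probe set.

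Abl2, also called Arg, had its lowest group mean with imatinib in both of its brighter probe sets. Probe set 1455495_at had intensities of 815 and 936 (vector), 748 and 879 (untreated BCR/ABL), then 708 and 791 (imatinib), with log2 changes of -0.12, -0.14 and -0.26 in the order of comparisons above. The last, imatinib against vector, had a 95% interval of -0.67 to 0.15 (adjusted p = 0.558). Probe set 1455682_at gave 477 and 560 (vector), 426 and 513 (untreated BCR/ABL), then 316 and 422 (imatinib), a change of -0.55 against vector (95% interval -1.13 to 0.02, adjusted p = 0.377). The third, 1445483_at, was near background, at 8.91 and 5.45 (vector), 22.6 and 16.1 (untreated BCR/ABL), then 2.46 and 3.51 (imatinib). These values lie in the range of Pdgfra and Ddr2 below and cannot be told from background, so the order of its groups is not read as a difference in Abl2. The fit gave it a log2 change of -1.08 with imatinib against untreated BCR/ABL (adjusted p = 0.123). With array medians set equal it was called, at -1.22 (adjusted p = 0.0334), and that scaling moved the median of all tested probe sets to -0.27 in this comparison.

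Bcr showed no separation between untreated and imatinib-treated BCR/ABL cells. Probe set 1455564_at had intensities of 1318 and 1663 (vector), 1264 and 1326 (untreated BCR/ABL), then 1188 and 1766 (imatinib). The 2 imatinib arrays were the lowest and the highest of the 6. Log2 changes were -0.22 (95% interval -0.78 to 0.33) for BCR/ABL against vector, 0.19 (-0.36 to 0.74) for imatinib against untreated BCR/ABL and -0.04 (-0.59 to 0.52) for imatinib against vector. After normalization both BCR/ABL arrays lay below both vector arrays in all 3 Bcr probe sets, although the deposited intensities of 1455564_at overlapped (1326 in BCR/ABL against 1318 in vector). The other probe sets had log2 changes of -0.40 for 1452368_at (adjusted p = 0.55) and -0.34 for 1427265_at (adjusted p = 0.672). Over all tested probe sets 19.7% were lower in this comparison without overlap.

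The collagen receptors and Pdgfra were dim. All 3 probe sets of Pdgfra stayed between 0.482 and 11 on every array, and both of Ddr2 between 0.629 and 33.6, where array medians were 35.6 to 57.2. Detection calls were not used here, so these values cannot be told from background. Their log2 changes are plotted with those of the other genes for completeness and are not read as differences.

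Ddr1 had 8 probe sets, of which 6 stayed below 100 on all arrays. The brightest, 1456226_x_at, read 193 and 13.2 (vector), 83.4 and 231 (untreated BCR/ABL), then 110 and 66.7 (imatinib). Vector replicate 2 was the lowest of the 6 and BCR/ABL replicate 2 the highest, so the groups overlapped. Probe set 1435820_x_at gave 106 and 16.8 (vector), 56.7 and 153 (untreated BCR/ABL), then 56.1 and 62.5 (imatinib). The suffix _x_at marks probe sets whose probes may also bind other transcripts. The log2 change of the brightest was 1.21 for BCR/ABL against vector, with an interval of -1.13 to 3.55 (adjusted p = 0.67). Leaving out vector replicate 2 gave -0.16, and leaving out vector replicate 1 gave 2.55. Monocyte and macrophage, granulocyte, mast cell and T and NK cell marker sums were also lowest on vector replicate 2 (9640, 51134, 6602 and 1442). Stem cell, B cell, megakaryocyte, erythroid, and stromal and endothelial sums were not lowest there (20325, 6340, 2021, 5444 and 1386). The part of that array's makeup in the Ddr1 values was not tested.

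**Figure D3:**
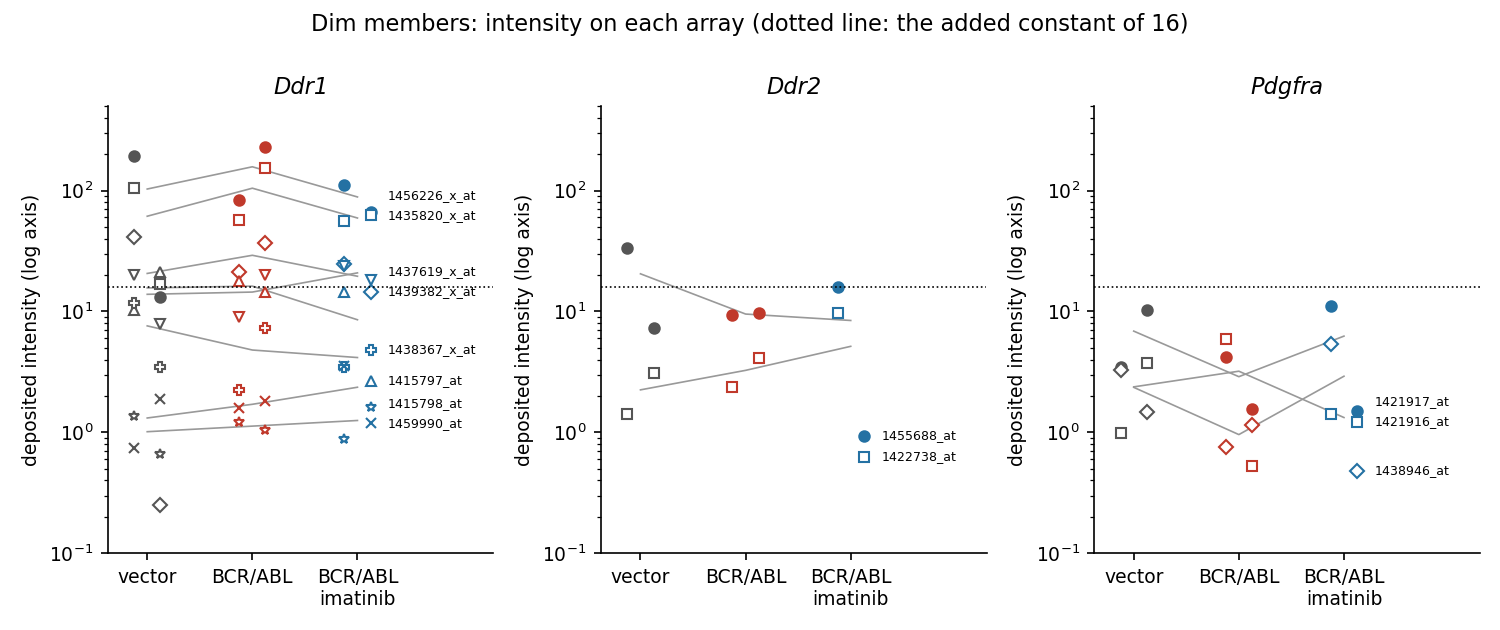
Deposited intensity (log axis) of all probe sets of Ddr1, Ddr2 and Pdgfra on each array, with colours, filled symbols and grey lines as in the plot of intensities by array; the dotted line is the constant of 16 added before log2. Ddr2 and Pdgfra reach at most 33.6 and 11, and vector replicate 2 lies far under replicate 1 for the brightest Ddr1 probe sets, at 13.2 against 193.

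Groups are said not to overlap by their normalized log2 values, which for 6 member calls (the Bcr one above, 1 of Abl1 and 4 of dim Ddr1) differ from the deposited intensities. In BCR/ABL against vector 3 of 29 member probe sets were higher and 6 lower without overlap, where 23.5% and 19.7% of all were. With imatinib against untreated BCR/ABL 5 were higher and 5 lower, against 22.5% and 27% of all. With imatinib against vector 4 were higher and 7 lower, against 19.7% and 22.4%. The 5 that were higher with imatinib than without were both probe sets of Kit, both of Pdgfrb and the bright one of Abl1.

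The ligands of these receptors were followed as 13 genes, and 0 passed in any comparison. Csf1, the ligand of CSF1R, read 156 and 114 (vector), 324 and 267 (untreated BCR/ABL), then 897 and 381 (imatinib), without overlap between groups. Its log2 change was 1.15 in BCR/ABL against vector (adjusted p = 0.422) and 1.98 with imatinib against vector (adjusted p = 0.191). Col4a1, a basement membrane collagen, had a log2 change of 1.43 in BCR/ABL against vector (adjusted p = 0.408) and Pdgfb one of -1.07 with imatinib against untreated BCR/ABL (adjusted p = 0.459), its highest value in those groups being 24.6. Pdgfd had the largest change with imatinib against untreated BCR/ABL (1.15, adjusted p = 0.619), resting on imatinib replicate 2 at 297 against 43.6 for replicate 1. Pdgfa stood at -1.21 (adjusted p = 0.429) and Col4a1 at 1.34 (adjusted p = 0.356) with imatinib against vector, and the collagen Col1a2 at 0.76 in BCR/ABL against vector (adjusted p = 0.715). Kitl, which encodes stem cell factor and was named after its values were seen, stayed between 4.42 and 34.2. The list's median log2 change was 0.25, -0.09 and -0.03, beside 0.01, -0.01 and -0.00 for all genes.

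Adaptors and effectors through which BCR/ABL and KIT signal were measured as 22 genes, and 0 passed. Gab1, a docking protein for SHP2 and PI3 kinase, read 446 and 583 (vector), 293 and 192 (untreated BCR/ABL), then 467 and 981 (imatinib), and had a log2 change of 1.36 with imatinib against untreated BCR/ABL (adjusted p = 0.222). Plcg1, a phospholipase recruited to active receptors, read 3645 and 3898 (vector), 2584 and 2408 (untreated BCR/ABL), then 3731 and 3818 (imatinib). Its log2 changes were -0.60 in BCR/ABL against vector (adjusted p = 0.119) and 0.63 with imatinib against untreated BCR/ABL (adjusted p = 0.108), so the order of its groups was lowest in BCR/ABL, as for Kit. Gab2, which links the fusion kinase to RAS and PI3 kinase, had a log2 change of 0.82 in BCR/ABL (adjusted p = 0.293) and 1.06 with imatinib (adjusted p = 0.162), each against vector. Dok2, an adaptor that restrains RAS signalling, ran opposite to Plcg1, at 357 and 349 (vector), 690 and 643 (untreated BCR/ABL), then 503 and 479 (imatinib). Its log2 changes were 0.90 in BCR/ABL against vector (adjusted p = 0.223) and -0.50 with imatinib against untreated BCR/ABL (adjusted p = 0.299). Pik3cd, a PI3 kinase subunit, stood at -0.53 (adjusted p = 0.330) against untreated BCR/ABL and -0.48 (adjusted p = 0.390) against vector with imatinib, and the dim Rin1 at -0.41 against vector (adjusted p = 0.651). List medians were -0.04, 0.07 and -0.00.

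Negative regulators of KIT and ABL signalling were measured as 13 genes, with 0 called and medians of 0.11, 0.22 and 0.26. Cblb, a ubiquitin ligase that marks active receptors for degradation, read 2102 and 2213 (vector), 1655 and 1205 (untreated BCR/ABL), then 2632 and 2698 (imatinib). Its log2 change was 0.95 with imatinib against untreated BCR/ABL (adjusted p = 0.120). Socs1, a feedback inhibitor of JAK and KIT signalling, ran the other way, with 18.7 and 17 (vector), 73.3 and 39.6 (untreated BCR/ABL), then 7.34 and 15.1 (imatinib), with a change of 1.22 in BCR/ABL against vector (adjusted p = 0.337) and of -1.66 with imatinib against untreated BCR/ABL (adjusted p = 0.142). Cbl had the next largest change of the list in BCR/ABL against vector, after Socs1 and Cblb (-0.36, adjusted p = 0.683). It read 2083 and 1984.5 (vector), then 2262 and 1137 (untreated BCR/ABL), so these groups overlapped. Sh2b2 stood at -0.75 with imatinib against untreated BCR/ABL (adjusted p = 0.399). With imatinib against vector the largest changes of the list were Ptprj (0.69, adjusted p = 0.201), Sh2b3 (0.61, adjusted p = 0.303) and Inpp5b (0.55, adjusted p = 0.200).

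Among 33 other receptor tyrosine kinases 0 were called, and medians were -0.02, 0.07 and 0.12. Flt3, a progenitor receptor of the same class as Kit and Csf1r, read 1894 and 2214 (vector), 1471 and 637 (untreated BCR/ABL), then 2052 and 2954 (imatinib). It was lower in BCR/ABL than in vector by a log2 change of -1.08 (adjusted p = 0.392) and higher with imatinib than without by 1.36 (adjusted p = 0.202), the same order of group means as Kit and with neither passing, although its vector and imatinib arrays overlapped. Fgfr1 read 63.1 and 47.5 (vector), 283 and 159 (untreated BCR/ABL), then 1318 and 331 (imatinib), with log2 changes of 1.82 in BCR/ABL (adjusted p = 0.412) and 3.25 with imatinib (adjusted p = 0.173) against vector. Mertk had a log2 change of 1.45 in BCR/ABL against vector (adjusted p = 0.460) and Flt1 one of -1.24 with imatinib against untreated BCR/ABL (adjusted p = 0.294). The endothelial and stem cell receptors Tek and Tie1 stood at 1.47 (adjusted p = 0.539) and 1.32 (adjusted p = 0.267) with imatinib against vector. Nqo2, an oxidoreductase that also binds imatinib, had a log2 change of 0.56, -0.43 and 0.13, with adjusted p of at least 0.419.

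Of 10 transcription factors known to act on Kit or Csf1r, 0 passed, and medians were 0.06, 0.14 and 0.18. Mitf, which acts on Kit in mast cells and melanocytes, read 756 and 943 (vector), 915 and 1052 (untreated BCR/ABL), then 2011 and 1928 (imatinib). Its log2 change was 1.01 with imatinib against untreated BCR/ABL (adjusted p = 0.114) and 1.20 against vector (adjusted p = 0.116). Tal1, a stem cell and erythroid factor, had a log2 change of 0.72 with imatinib against untreated BCR/ABL (adjusted p = 0.118). Irf8, a monocyte and dendritic cell factor, had a log2 change of -1.62 in BCR/ABL (adjusted p = 0.310) and -1.37 with imatinib (adjusted p = 0.277) against vector. Gata2, a stem cell and mast cell factor, stood at 0.59 in BCR/ABL (adjusted p = 0.126) and 0.64 with imatinib (adjusted p = 0.116) against vector, and Cebpa, a myeloid factor, at 0.35 in BCR/ABL against vector (adjusted p = 0.423).

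**Figure D4:**
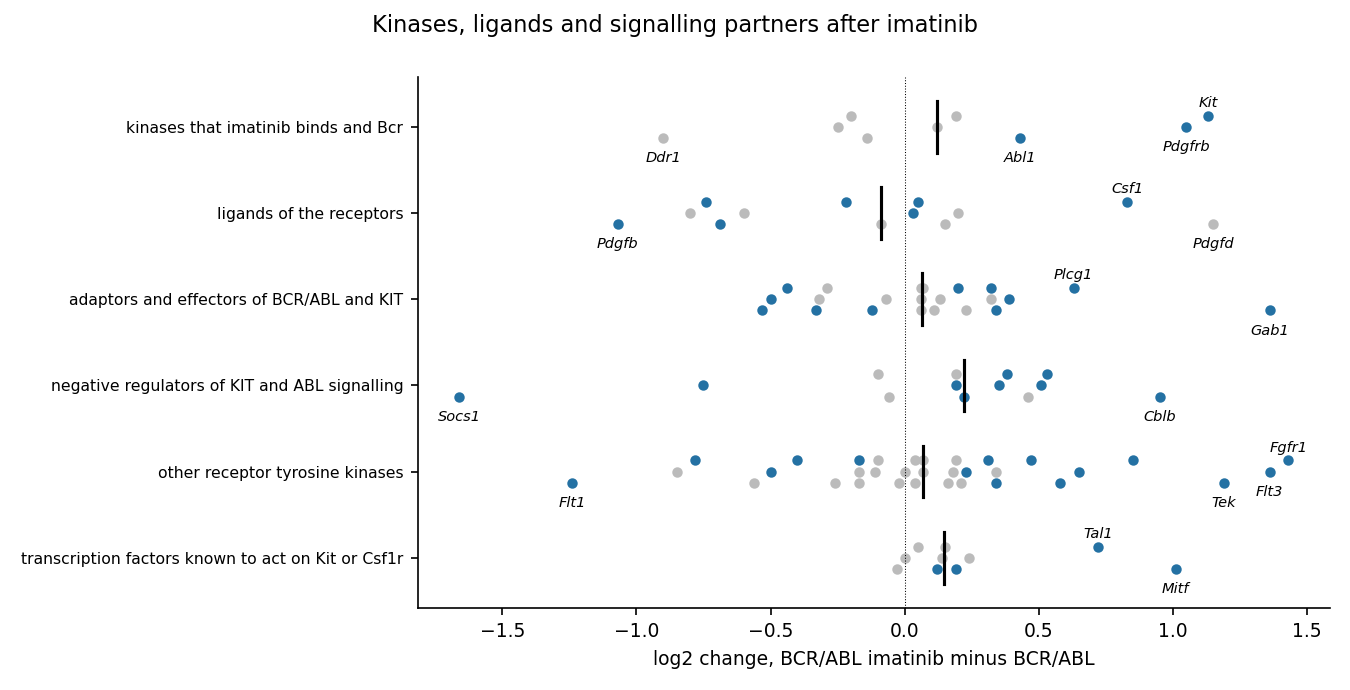
Log2 change of each gene with imatinib against untreated BCR/ABL (x axis), by list; blue points are genes whose 2 arrays per group do not overlap, grey points genes whose groups overlap, and black bars list medians. Kit at 1.13 and Pdgfrb at 1.05 stand at the upper end of their list, and Fgfr1 at 1.43 and Flt3 at 1.36 at that of the other receptor kinases.

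The genes whose pattern over the 6 arrays was most like that of Kit, Pdgfrb and Ddr1 were sought among 10051 genes above the median level; the other members varied by less than 1 log2 unit or lay below that level. The nearest to Kit were Erbin (Pearson r = 0.9989), Sppl3 (0.9988) and Zg16 (0.9916). Erbin, which encodes a scaffold protein that binds the receptor kinase ERBB2, read 2552 and 2975 (vector), 2330 and 2130 (untreated BCR/ABL), then 3299 and 3163 (imatinib). The nearest to Pdgfrb were Galc, a lysosomal galactosidase (0.9961), Dapk1, a death-associated kinase (0.9959), and Pdzd2 (0.9898), and those to Ddr1 were the receptor kinase Axl (0.9919), Rab11fip4 (0.9621) and Clec4a3 (0.9613). Axl read 435 and 75.8 (vector), 205 and 523 (untreated BCR/ABL), then 310 and 198 (imatinib), so vector replicate 2 was its lowest array too. These are the highest of 10051 correlations over 6 arrays that share 3 groups: 303 genes exceeded 0.9 with Kit, 284 with Pdgfrb and 42 with Ddr1.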

How the data were processed

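Linear intensity values, 1 per probe set, were used as deposited; the software was Affymetrix Expression Console with MAS5, per the submitters' processing notes, with no version named there. Each array has a mean of 500.0 after 2% of values are trimmed at each end. The series text names a whole-transcript array, but the probe set identifiers are those of the Mouse Genome 430 2.0 array, whose annotation gave the symbols. Of 45101 probe sets, 64 controls were left out, and the rest were transformed as log2(intensity + 16), which understates changes of dim genes, and quantile normalized. Testing covered the 35877 with a symbol, using limma 3.58.1 (R 4.3.3, lmFit, eBayes with trend), 1 fit over 6 arrays with 3 residual and 2.97 prior degrees of freedom, two-sided, Benjamini-Hochberg over all of them, threshold 0.05, no filter. The number of arrays limits precision. The probe set of highest mean log2 level stands for its gene. Members and lists were chosen with earlier results of these data known. Named genes were all members, then from each list any called gene and up to 3 with the largest change in a comparison. The alike genes are the 3 highest Pearson r for members above the median level with a range of at least 1. The limma step was tested on simulated data. No batch is given in the labels. Alternatives are in the closing section.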

Additional observations from a re-analysis of the deposited data

How the results depend on the processing

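The 27 changes of the 9 genes were followed under 16 alternatives, giving 426 values: 402 kept direction and side of the threshold, 23 changed sign and 1 passed the threshold. The count of member probe sets called stayed at 0 for BCR/ABL and for BCR/ABL imatinib, each against vector, under every alternative; with imatinib against untreated BCR/ABL it was 1 with array medians set equal (the dim Abl2 probe set) and 1 above the 50th percentile (Kit, 1.13). Leaving out each array in turn kept all 3 counts at 0, a range of 0 to 0. The Kit change with imatinib against untreated BCR/ABL ran from 1.02 to 1.25 without 1 array, with adjusted p from 0.0421 to 0.52 over its alternatives, and the Pdgfrb change against vector from 1.20 to 1.68, with adjusted p from 0.0611 to 0.387. None of the sign changes was called on either side. For BCR/ABL against vector, array medians gave Abl2 0.107, Bcr 0.020 and Csf1r 0.029; averaging the probe sets of a gene gave Abl1 0.111 and Abl2 0.163; and leaving out 1 array in turn gave ranges of -0.836 to 0.217 for Ddr2, -0.589 to 0.167 for Csf1r and -0.165 to 2.55 for Ddr1. For imatinib against untreated BCR/ABL, array medians gave Bcr -0.168 and Pdgfra -0.122, and leaving out 1 array gave -0.166 to 0.405 for Pdgfra, -0.578 to 0.176 for Csf1r, -0.110 to 0.488 for Bcr and -0.678 to 0.174 for Ddr2. For imatinib against vector, averaging gave Abl1 0.112, and leaving out 1 array gave -0.476 to 0.0743 for Abl1, -0.337 to 0.263 for Bcr, -1.07 to 1.64 for Ddr1 and -0.400 to 0.176 for Pdgfra. The Abl1 change with imatinib against untreated BCR/ABL kept its sign but went from 0.43 to 0.0005 with averaged probe sets. The cause was not tested. Array medians moved the median of all tested probe sets to 0.199, -0.269 and -0.093 in the 3 comparisons. The count over all tested probe sets was 22, 0 and 16, and ran from 0 to 298, 0 to 1200 and 0 to 275 over the alternatives. With the replicate block it was 22, 0 and 9, and 0 members were called. Deviations of same-numbered arrays were at most weakly correlated (-0.080, 0.160 and 0.146), so the numbers are not taken as pairs. A replicate effect is not excluded by this, and the 3-prime to 5-prime ratios of both control genes were higher on replicate 1 in all 3 groups. Pdgfra and Ddr2 lie below the 50th percentile and have no value under that filter.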
